A study of Mus musculus with 15 samples.

Results

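The genes of MHC class II antigen presentation were followed here in mouse bone marrow-derived macrophages (BMDMs) given IL-4, IL-13 or either of these together with IL-6. The 10 members were taken by symbol from the count matrix: the class II chains H2-Aa, H2-Ab1 and H2-Eb1, the invariant chain Cd74, the peptide exchange chains H2-DMa, H2-DMb1 and H2-DMb2, their inhibitor chains H2-Oa and H2-Ob, and the transactivator Ciita. All 10 were found among 53465 Ensembl identifiers, and all 10 were among the 13938 genes that had enough counts to be tested. Marrow of mice that were 8 to 12 weeks old by the study's methods was grown for 7 days in DMEM with 10% FBS and 20 ng/ml M-CSF. The strain is not given in the sources used here. The BMDMs were then left without added cytokine (control) or were cultured for 24 h with IL-4, IL-13 or either of them with IL-6, where IL-4 was at 10 ng/ml and IL-13 and IL-6 at 40 ng/ml. The groups are called control, IL-4, IL-4+IL-6, IL-13 and IL-6+IL-13, and none had IL-6 alone. Each of the 5 groups had 3 libraries of bulk RNA, called biological replicates by the study.

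Class II molecules are pairs of an alpha and a beta chain that show peptides from the endosomal pathway to CD4+ T cells. New pairs bind the invariant chain, which fills the groove and guides them to endosomes. Proteases then trim the invariant chain, H2-DM takes out its last fragment and lets other peptides bind, and H2-O holds H2-DM back, best known in B cells and some dendritic cells. Transcription of these genes depends on CIITA, a coactivator that does not bind DNA itself but sits on RFX, CREB and NF-Y at a promoter module with S, X and Y boxes. Macrophages are known to carry moderate class II levels that IFN-gamma raises through Ciita.

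The Y box is an element of the promoter module of these genes, and the windows around a run of its letters are shown before the expression values. Promoter windows of 300 bases, from 250 before to 50 after each start site, came from the RefSeq table on GRCm38.p6, which matched 7 of the 10 members; H2-Ab1, Cd74 and Ciita were not matched. The letters TGATTGG, chosen after the sequences were seen, stood in 6 of these 7 (H2-Aa, H2-Eb1, H2-DMb1, H2-DMb2, H2-Oa and H2-Ob), on the strand of the gene and 45 to 92 bases before its start. Over both strands, 7.82% of the 32851 windows in the table held this run. The capitals mark TGATTGG and, where it occurs, TAGCAAC of the X box.
H2-Aa: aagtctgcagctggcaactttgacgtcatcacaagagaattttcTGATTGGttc
H2-Eb1: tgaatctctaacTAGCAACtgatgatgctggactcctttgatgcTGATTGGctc
H2-DMb1: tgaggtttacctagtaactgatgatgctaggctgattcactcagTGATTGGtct
H2-DMb2: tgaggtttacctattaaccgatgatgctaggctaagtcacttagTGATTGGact
H2-Oa: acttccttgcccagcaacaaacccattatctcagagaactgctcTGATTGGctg
H2-Ob: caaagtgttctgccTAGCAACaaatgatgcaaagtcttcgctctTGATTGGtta

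These windows lie at chr17:34287864-34287917 on the minus strand (H2-Aa) and, on the plus strand, at chr17:34305762-34305815 (H2-Eb1), chr17:34153084-34153137 (H2-DMb1), chr17:34145113-34145166 (H2-DMb2), chr17:34092290-34092343 (H2-Oa) and chr17:34238802-34238855 (H2-Ob). The longer run CTGATTGG was in 3 members (H2-Aa, H2-Eb1 and H2-Oa) and in 4.10% of all windows, and it contains the run above. TAGCAAC was in 2 members, 25 bases before the Y box in H2-Eb1 and 23 bases before it in H2-Ob, and in 3.66% of all windows. The NF-Y core CCAAT, which the Y box holds on its opposite strand, was in all 7 members but also in 37.4% of all windows. H2-DMa had CCAAT at 1 of its 2 start sites and none of the longer runs. The windows of H2-DMb1 and H2-DMb2, neighboring genes of like sequence, had the same base at 48 of 54 positions. A match of letters describes the window and is no measurement of binding.

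Levels are given as normalized CPM, the counts scaled to library size with TMM factors, and a fold change is on the log2 scale with its standard error (SE). A gene was called at an adjusted p under 0.05, from the quasi-likelihood test of edgeR with the Benjamini-Hochberg procedure over all 13938 genes, and all adjusted p-values below come from this test unless another is named. The summed counts were between 17001352 and 18918686 per library. Replicates varied most in IL-4+IL-6 (coefficient of variation 14.9%) and IL-13 (10.9%), and least in control (4.49%). Macrophage markers were present throughout: Adgre1, which encodes F4/80, was at 844 CPM in control and between 884 and 1454 CPM in the means of the other groups, and none of 10 macrophage markers was at 3 counts or fewer in every library of a group. Their summed level was 19328 to 21556 CPM in control, 14976 to 15429 with IL-4, 17627 to 20433 with IL-13, 12157 to 13954 with IL-4+IL-6 and 14914 to 15900 with IL-6+IL-13. Of the 10, 5 were lower and 3 higher with IL-4, 3 lower and 5 higher with IL-13, 6 lower and 4 higher with IL-6 beside IL-4, and 2 lower and 5 higher with IL-6 beside IL-13, and their part in the results was not tested. The lower and higher shares of all 13938 genes were 35.9% and 32.1%, 31.1% and 29.0%, 18.7% and 20.7%, and 13.5% and 12.1% in these 4 comparisons. In bulk RNA, fewer cells of a type and less RNA per cell cannot be told apart. All 4 comparisons with control share the 3 control libraries.

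Most members were lower than control in each cytokine group, and Cd74 was the one member that was raised, by IL-4 and by IL-13. With IL-4, 7 of 10 members were called lower than control and 1 was called higher, while of all genes tested 35.9% were called lower and 32.1% higher. With IL-13, 9 were lower and 1 higher, against 31.1% and 29.0% of all genes. Co-addition of IL-6 to IL-4 lowered 7 members and raised 0, against 18.7% lower and 20.7% higher among all genes. Co-addition of IL-6 to IL-13 lowered 6 and raised 0, against 13.5% lower and 12.1% higher. Compared with control, all 10 members were lower in IL-4+IL-6 and 9 were lower in IL-6+IL-13, with 0 higher in either, where the shares of all genes were 37.5% lower and 35.4% higher, and 32.1% lower and 31.9% higher. None of the members was raised at an unadjusted p under 0.05 in these last 4 comparisons, and DESeq2 and limma-voom also called 0 members higher there. H2-Oa and H2-Ob passed the filter on low counts only through the control libraries, so they had to differ from control. Over the other 8 members, 5 were lower with IL-4, 7 with IL-13, 8 with IL-4+IL-6 and 7 with IL-6+IL-13 than in control, and the median log2 fold change was -0.60 for IL-4 and -0.99 for IL-13. The median log2 fold change of the 10 members was -0.91 for IL-4 and -1.34 for IL-13 against control, -1.04 for IL-6 added to IL-4 and -0.58 for IL-6 added to IL-13. The same medians over all genes lay between -0.05 and 0.04.

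**Figure D1:**
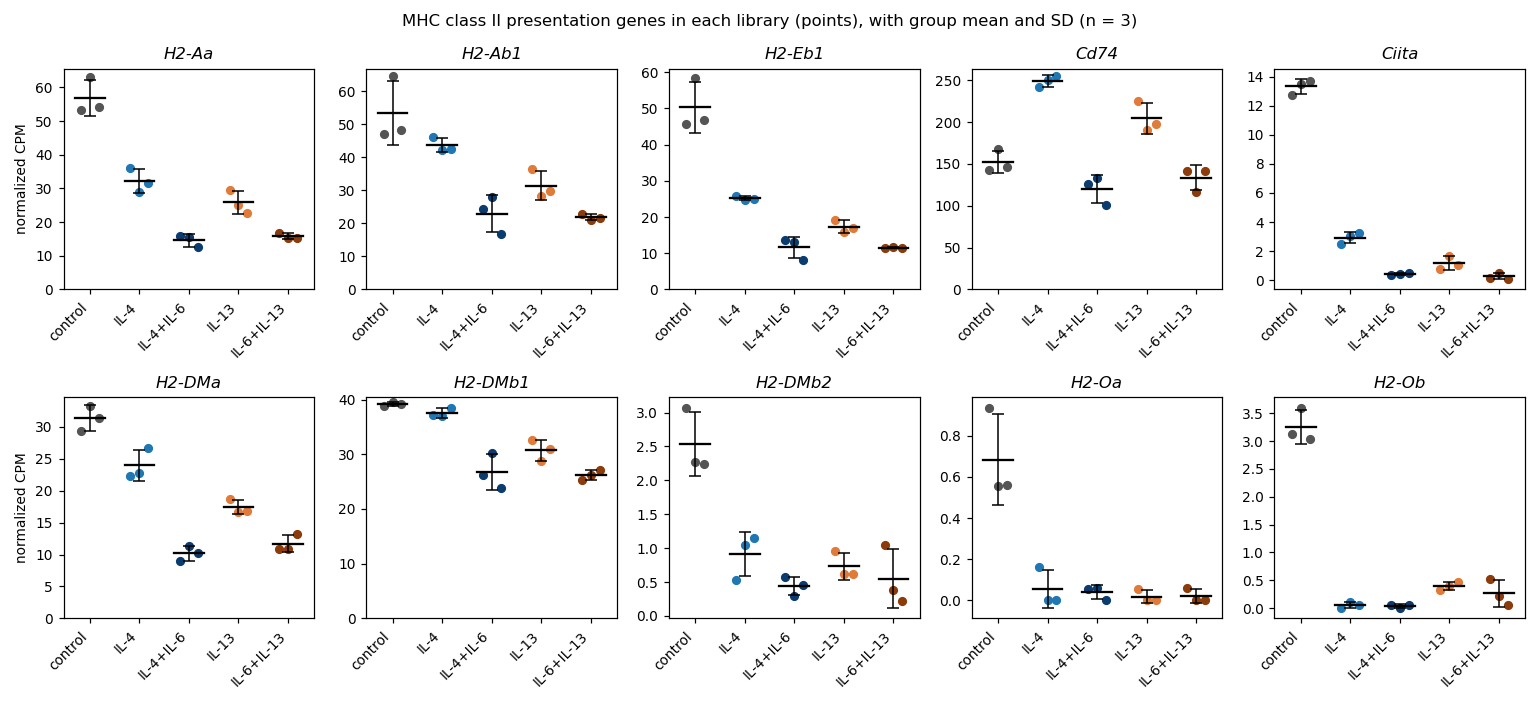
Normalized CPM (vertical axis, linear, one scale per gene) of the 10 members in the 5 groups, with one point per library and the mean and SD of 3 libraries in black. Cd74 stands highest with IL-4 (249 CPM) and IL-13 (204.5 CPM), whereas Ciita and the H2 genes stand highest in control.

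The class II alpha chain H2-Aa (chr17:34282744-34287823, minus strand, GRCm38, protein coding) was at 53.2, 63.1 and 54.3 CPM in the 3 control libraries, 36.1, 28.9 and 31.7 with IL-4, 29.5, 25.2 and 22.8 with IL-13, 15.9, 15.6 and 12.4 with IL-4+IL-6, and 16.9, 15.3 and 15.2 with IL-6+IL-13. All control libraries were above all others, and all libraries with IL-6 were below all libraries without it. H2-Aa fell with IL-4 by 0.82 (SE 0.112, adjusted p = 6.03e-06) and with IL-13 by 1.14 (SE 0.114, adjusted p = 1.82e-07) on the log2 scale. Adding IL-6 to IL-4 lowered it by a further -1.14 (SE 0.121, adjusted p = 6.33e-07), and adding IL-6 to IL-13 by -0.71 (SE 0.12, adjusted p = 0.000229). What remained was 25.8% ± 3.4 of the control level in IL-4+IL-6 and 27.8% ± 1.62 in IL-6+IL-13 (SD, n = 3).

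H2-Eb1, a class II beta chain (chr17:34305867-34316674, plus strand), was also highest in control and lowest in the groups with IL-6. It was at 45.6, 58.5 and 46.9 CPM in control, 25.9, 24.7 and 25.1 with IL-4, 19.2, 15.8 and 16.9 with IL-13, 13.6, 13.1 and 8.24 with IL-4+IL-6, and 11.3, 11.6 and 11.6 with IL-6+IL-13. The groups without IL-6 did not overlap with each other or with the groups that had it. Its log2 fold change over control was -0.996 with IL-4 (SE 0.135, adjusted p = 5.28e-06) and -1.54 with IL-13 (SE 0.139, adjusted p = 4.99e-08). IL-6 changed it by -1.11 beside IL-4 (SE 0.146, adjusted p = 8e-06) and by -0.59 beside IL-13 (SE 0.149, adjusted p = 0.00647), which left 23.1% ± 5.88 and 22.8% ± 0.291 of control.

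H2-Ab1, the other beta chain (chr17:34257689-34269419, plus strand), moved least of the class II chains. Its libraries were at 47.2, 64.5 and 48.2 CPM in control, 46.1, 42.3 and 42.6 with IL-4, 36.4, 28.1 and 29.7 with IL-13, 24.2, 27.9 and 16.8 with IL-4+IL-6, and 22.9, 21.1 and 21.5 with IL-6+IL-13. The IL-4 libraries were just below the lowest control library, and 1 control library at 64.5 CPM stood above the others. The difference between IL-4 and control, -0.29 (SE 0.147), was not called (adjusted p = 0.0933), although it was in the fit of those 2 groups alone (-0.25, adjusted p = 0.00468) and with limma-voom (-0.26, adjusted p = 0.0182). On leaving out 1 library it was between -0.35 and -0.12 (adjusted p between 0.07 and 0.503). The other differences were called: -0.76 with IL-13 over control (SE 0.149, adjusted p = 0.000307), -0.93 for IL-6 beside IL-4 (SE 0.154, adjusted p = 9.87e-05) and -0.53 for IL-6 beside IL-13 (SE 0.155, adjusted p = 0.018). The last of these had an adjusted p of 0.07 without IL-13 replicate 1 and of 0.0552 without IL-6+IL-13 replicate 2.

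The invariant chain Cd74 (chr18:60803848-60812652, plus strand) was the one member that rose. It was at 143, 168 and 147 CPM in control, 242, 250 and 256 with IL-4, 226, 190 and 198 with IL-13, 126, 134 and 101 with IL-4+IL-6, and 142, 116 and 142 with IL-6+IL-13. Every IL-4 and IL-13 library was above every control library, and every library with IL-6 was below every control library, though 2 of those with IL-6+IL-13 only just. Cd74 rose by 0.71 with IL-4 (SE 0.103, adjusted p = 1.22e-05) and by 0.42 with IL-13 (SE 0.103, adjusted p = 0.00198) on the log2 scale. IL-6 took this back, by -1.05 beside IL-4 (SE 0.104, adjusted p = 2.84e-07) and by -0.62 beside IL-13 (SE 0.104, adjusted p = 2e-04). Relative to control, Cd74 was then lower in IL-4+IL-6 (-0.34, SE 0.104, adjusted p = 0.00728), while the difference in IL-6+IL-13 was not called (-0.19, SE 0.104, adjusted p = 0.111) but was with upper-quartile factors (adjusted p = 0.0498) and in a fit of only these groups (adjusted p = 0.0274). On leaving out 1 library, the difference in IL-6+IL-13 was between -0.24 and -0.098 (adjusted p between 0.0917 and 0.443).

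The balance between Cd74 and its class II partners differed between control and all cytokine groups. Levels of different genes were compared per length, with the FPKM values that the authors deposited. Cd74 was at 113 ± 9.001 FPKM in control, against 31.7 ± 2.71 for H2-Aa, 34.0 ± 5.87 for H2-Ab1 and 44.4 ± 5.84 for H2-Eb1 (SD, n = 3). With IL-4 it was at 179 ± 4.75 FPKM, against 17.4 ± 1.91, 27.0 ± 1.29 and 21.6 ± 0.462 for these chains. The ratio of Cd74 to the mean of the 3 chains was between 2.92 and 3.19 in the control libraries and between 7.43 and 8.57 with IL-4. It was between 7.70 and 9.05 with IL-4+IL-6, between 8.86 and 9.41 with IL-13 and between 7.99 and 9.74 with IL-6+IL-13. The ranges of the cytokine groups overlapped in part, while control was apart from all of them. Its mean was 8.16 ± 0.632 with IL-4 and 8.19 ± 0.746 with IL-4+IL-6, a difference within the spread of the libraries. These ratios were not tested.

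**Figure D2:**
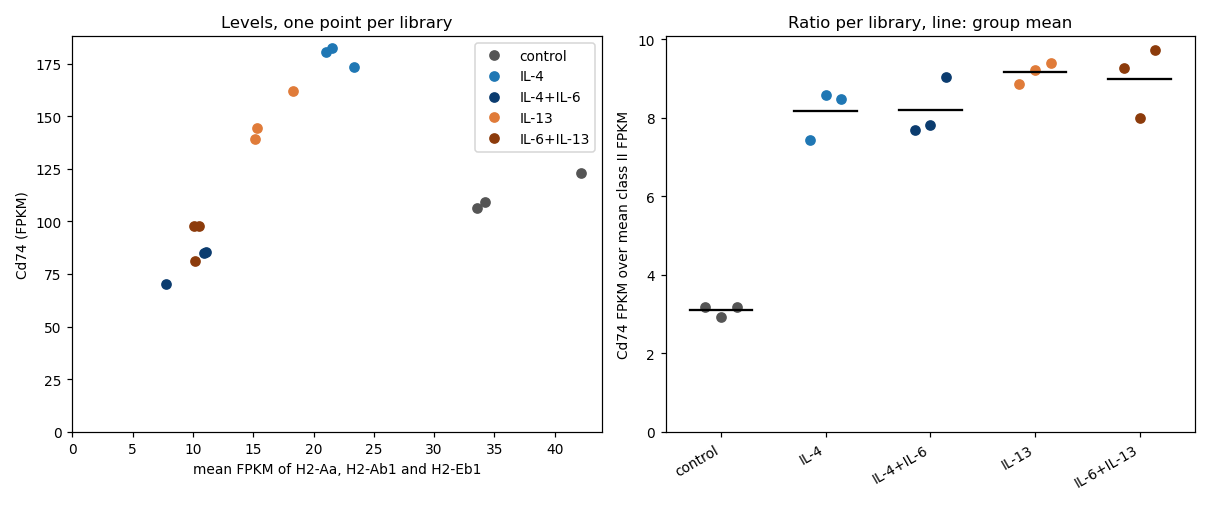
Left, Cd74 FPKM (vertical) against the mean FPKM of H2-Aa, H2-Ab1 and H2-Eb1 (horizontal), one point per library; right, the ratio of these values per library, with a line at the group mean. Control libraries have ratios of 2.92 to 3.19, and all cytokine libraries lie above 7.

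The DM chains exchange peptides and are needed as a pair of one alpha and one beta chain. H2-DMa (chr17:34119541-34139101, plus strand) was at 29.3, 33.4 and 31.5 CPM in control, 22.4, 22.8 and 26.7 with IL-4, 18.7, 16.7 and 16.9 with IL-13, 8.90, 11.4 and 10.2 with IL-4+IL-6, and 10.9, 10.9 and 13.2 with IL-6+IL-13. Only the groups with IL-6 overlapped with each other. Its log2 fold change over control was -0.39 with IL-4 (SE 0.106, adjusted p = 0.00372) and -0.85 with IL-13 (SE 0.108, adjusted p = 3.29e-06). IL-6 lowered it by -1.24 beside IL-4 (SE 0.114, adjusted p = 1.12e-07) and by -0.58 beside IL-13 (SE 0.114, adjusted p = 0.000885). In the annotation, H2-DMa shares 360 exon bases with Brd2 on the opposite strand, and Brd2 was at 246 to 250 CPM in the means of all groups. Whether the counting used strand is not given in the sources used here.

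H2-DMb1, the main DM beta chain here (chr17:34153072-34160230, plus strand), hardly moved with IL-4. It was at 38.8, 39.6 and 39.2 CPM in control and at 37.1, 37.0 and 38.5 with IL-4, then at 32.6, 28.7 and 30.9 with IL-13, 26.1, 30.3 and 23.9 with IL-4+IL-6, and 25.3, 26.1 and 27.0 with IL-6+IL-13. The IL-4 libraries lay just under the control libraries, and the difference of -0.06 (SE 0.0813, adjusted p = 0.507) was not called. It fell by 0.35 with IL-13 (SE 0.082, adjusted p = 0.00141) and by 0.49 when IL-6 joined IL-4 (SE 0.083, adjusted p = 0.000135). When IL-6 joined IL-13 the difference of -0.23 (SE 0.0836) was at the threshold (adjusted p = 0.0502), and DESeq2 gave an adjusted p of 0.0371. The ratio of H2-DMb1 to H2-DMa in FPKM was between 1.31 and 1.46 in the control libraries and between 2.59 and 3.25 with IL-4+IL-6, without overlap.

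H2-DMb2, the second beta chain gene (chr17:34143307-34151555, plus strand), was expressed far less. It was at 1.55 ± 0.296 FPKM in control, where H2-DMb1 was at 27.6 ± 0.121 FPKM. Its counts were 59, 41 and 40 in control, 10, 19 and 21 with IL-4, 18, 11 and 12 with IL-13, 10, 5 and 8 with IL-4+IL-6, and 18, 7 and 4 with IL-6+IL-13. The control libraries were above all the rest, which overlapped. H2-DMb2 fell by 1.47 with IL-4 (SE 0.378, adjusted p = 0.00244) and by 1.78 with IL-13 (SE 0.389, adjusted p = 0.000815). The differences of -1.03 for IL-6 beside IL-4 (SE 0.481, adjusted p = 0.102) and -0.43 for IL-6 beside IL-13 (SE 0.475, adjusted p = 0.576) were not called at this depth. The latter was -1.27 without IL-6+IL-13 replicate 1 and -0.07 without IL-6+IL-13 replicate 3. Reads from stretches that H2-DMb1 and H2-DMb2 share could be split between them, so the smaller value is uncertain.

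H2-O, which inhibits DM, was detected in control and was low with every cytokine treatment. H2-Ob, its beta chain (chr17:34238903-34254414, plus strand), had 60, 65 and 54 counts in the control libraries, 0, 2 and 1 with IL-4, 1, 0 and 1 with IL-4+IL-6, 6, 7 and 9 with IL-13, and 9, 4 and 1 with IL-6+IL-13. Control was far above every other library, and the libraries with IL-4 were below those with IL-13 alone. The ratio of control to IL-4 was 59.7 (95% interval 20.1 to 292, exact, for counting error only), and the ratio of control to IL-4+IL-6 was 84.5 (23.0 to 703). With IL-13 its log2 fold change over control was -3.02 (SE 0.408). Since only control took the gene past the filter on low counts, these differences from control are a description, with no test. IL-13 was above IL-4 by a ratio of 7.23 (2.17 to 37.7), a difference that edgeR called (adjusted p = 0.0282) but that was not called without IL-4 replicate 1 (adjusted p = 0.109), IL-4 replicate 3 (0.0911), IL-13 replicate 2 (0.0682) or IL-13 replicate 3 (0.0952).

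H2-Oa, the alpha chain (chr17:34092340-34095234, plus strand), had 18, 10 and 10 counts in control. It had 3, 0 and 0 counts with IL-4, 1, 1 and 0 with IL-4+IL-6, 1, 0 and 0 with IL-13, and 1, 0 and 0 with IL-6+IL-13. The ratio of control to IL-4 was 12.7 (95% interval 4.02 to 64.1) and to IL-13 it was 38.5 (6.51 to 1562), again for counting error only. H2-Oa also passed the filter only through control, so these differences are a description with no test, and no fold is given among the cytokine groups, where H2-Oa was at 3 counts or fewer in every library. H2-Oa shares 321 exon bases with an antisense gene, BC051537, which had 0 counts in all libraries.

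**Figure D3:**
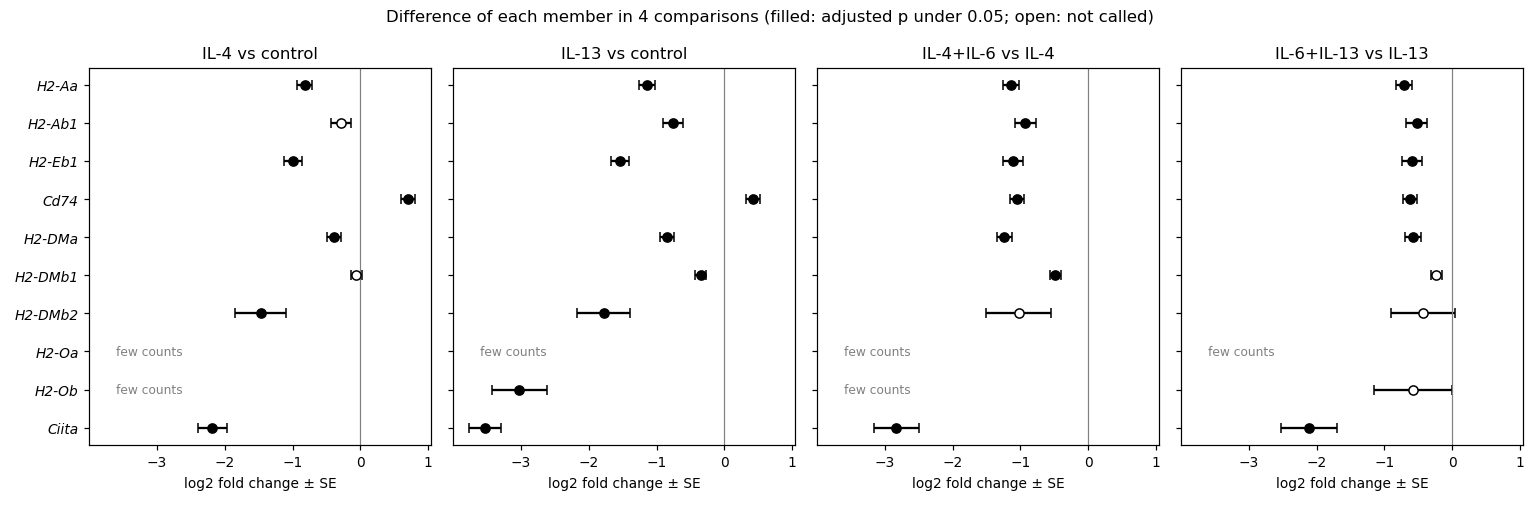
Log2 fold change with its SE (horizontal) of each member in 4 comparisons, filled where called and open where not. H2-Ob passed the filter on low counts only through control, so its filled point for IL-13 against control is a description. Members with 3 counts or fewer in every library of a group are marked as few counts; Cd74 is to the right of 0 with IL-4 (0.71) and IL-13 (0.42), and no filled point is to the right of 0 where IL-6 was added.

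Ciita (chr16:10480059-10528418, plus strand), the transactivator of these genes, fell furthest of the members drawn with a value in the plot of fold changes, in each of its 4 comparisons. It was at 12.7, 13.5 and 13.7 CPM in control, 2.52, 3.04 and 3.22 with IL-4, 0.750, 1.69 and 1.03 with IL-13, 0.340, 0.412 and 0.461 with IL-4+IL-6, and 0.173, 0.488 and 0.111 with IL-6+IL-13. Control, IL-4 and IL-13 were apart from each other, each addition of IL-6 took all 3 libraries below those without it, and only the groups with IL-6 overlapped. Ciita fell by 2.18 with IL-4 (SE 0.211, adjusted p = 8.83e-08) and by 3.53 with IL-13 (SE 0.239, adjusted p = 1.32e-09) on the log2 scale. IL-6 lowered it by -2.83 beside IL-4 (SE 0.33, adjusted p = 1.96e-06) and by -2.11 beside IL-13 (SE 0.414, adjusted p = 0.000853). On leaving out 1 library, the value beside IL-13 was between -2.96 (without IL-6+IL-13 replicate 2) and -1.76, with an adjusted p of at most 0.0065. The level of Ciita was then 3.03% ± 0.455 of control in IL-4+IL-6 and 1.93% ± 1.52 in IL-6+IL-13, which rests on 6 to 8 and 2 to 9 counts per library.

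Levels relative to control differed widely between Ciita and the genes it serves. In IL-4+IL-6, with Ciita at 3.03% of control, H2-Aa was at 25.8%, H2-Eb1 at 23.1%, H2-DMa at 32.4%, H2-Ab1 at 43.1%, H2-DMb1 at 68.3% and Cd74 at 78.9%, while H2-DMb2 was at 17.4%, H2-Oa at 5.63% and H2-Ob, below Ciita, at 1.17%. In IL-4 alone, with Ciita at 22.0%, H2-Eb1 was at 50.1%, H2-Aa at 56.7%, H2-DMa at 76.4%, H2-Ab1 at 81.9%, H2-DMb1 at 95.7% and Cd74 at 164%, while H2-DMb2 was at 36.0%, and H2-Oa (7.82%) and H2-Ob (1.69%) were below Ciita. Ciita shares 329 exon bases with Dexi on the opposite strand, and Dexi was between 6.11 and 7.89 CPM in the means of all groups. Ciita is also expressed at low level per length, with 2.65 ± 0.102 FPKM in control and 0.0727 ± 0.0120 FPKM in IL-4+IL-6.

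The order of the groups was alike for most members. H2-Aa, H2-Ab1, H2-Eb1, H2-DMa, H2-DMb1, H2-DMb2 and Ciita were highest in control, followed by IL-4, IL-13 and then the groups with IL-6. Cd74 was highest in IL-4, then IL-13, control, IL-6+IL-13 and IL-4+IL-6. Some neighbors in these orders were not called different. These were control and IL-4 for H2-Ab1 and H2-DMb1, IL-4 and IL-13 for H2-Aa (adjusted p = 0.0784), H2-DMb2 and Cd74 (adjusted p = 0.0782), control and IL-6+IL-13 for Cd74, IL-13 and IL-6+IL-13 for H2-DMb2, and the pair of groups with IL-6 for each of these 8 genes. IL-13 and IL-4+IL-6, neighbors for H2-Ab1, H2-Eb1, H2-DMb1 and Ciita, were not tested against each other, and their libraries overlapped for H2-DMb1. H2-Ob was highest in control, then IL-13, IL-6+IL-13, IL-4 and IL-4+IL-6, and of these neighbors only control and IL-13 did not overlap. H2-Oa had control highest, and its other groups overlapped. Between IL-4 and IL-13, Cd74 was called by DESeq2 (adjusted p = 0.0494) and limma-voom (0.000973), without a filter on low counts (0.00413), with only the groups compared (0.0201) and without IL-13 replicate 1 (0.0213). H2-Aa was called there by limma-voom (adjusted p = 0.00171), without a filter (0.0235) and without IL-13 replicate 1 (0.0166).

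IL-4 and IL-13 act through a shared receptor chain, and at the doses used 5 of the 10 members were lower with IL-13. These 5 were called higher with IL-4 than with IL-13 (5.16% of all genes), and 1 other member was lower with IL-4 (7.61% of all genes). Ciita was higher by 1.34 with IL-4 (SE 0.268, adjusted p = 0.0024), H2-Eb1 by 0.54 (SE 0.141, adjusted p = 0.016), H2-Ab1 by 0.47 (SE 0.15, adjusted p = 0.0469), H2-DMa by 0.46 (SE 0.109, adjusted p = 0.00897) and H2-DMb1 by 0.29 (SE 0.0821, adjusted p = 0.028). The lower one was H2-Ob. DESeq2 called 6 members higher and limma-voom 7, where limma-voom called 2377 of all genes higher and edgeR 719. The count of 5 fell to 2 without IL-4 replicate 1, IL-4 replicate 3, IL-13 replicate 2 or IL-13 replicate 3 and to 3 without IL-4 replicate 2, and it rose to 7 without IL-13 replicate 1. Over these fits the genes called higher were between 444 and 1292, the latter without IL-13 replicate 1. Since the doses were 10 and 40 ng/ml, the cytokine and its dose cannot be told apart.

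With IL-6 present, edgeR called none of these 5 members, while limma-voom called H2-DMa lower with IL-4+IL-6 than with IL-6+IL-13 (-0.36, adjusted p = 0.016). Between IL-4+IL-6 and IL-6+IL-13, 0 members were called higher (15.8% of all genes, and 0 members at an unadjusted p under 0.05 or with DESeq2 or limma-voom), and 1, H2-Ob, was called lower (15.5% of all genes). No member was free of overlap between these groups. H2-Eb1 differed by 0.02 (SE 0.154), H2-DMb1 by 0.03 (SE 0.0844), H2-Ab1 by 0.07 (SE 0.158), H2-Aa by -0.11 (SE 0.125), Cd74 by -0.15 (SE 0.104), H2-DMa by -0.20 (SE 0.119) and Ciita by 0.62 (SE 0.516). H2-Ob had 14 counts in IL-6+IL-13 against 2 in IL-4+IL-6, a ratio of 6.77 (1.56 to 61.4), and its adjusted p of 0.0411 rose to between 0.0545 and 0.239 without IL-4+IL-6 replicate 1, 2 or 3 or IL-6+IL-13 replicate 1 or 2, and was 0.108 with limma-voom.

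The effect of IL-6 beside IL-4 was compared with its effect beside IL-13 by an interaction term. H2-DMa was the only member that edgeR called: IL-6 lowered it by 0.66 more on the log2 scale beside IL-4 (SE 0.161, adjusted p = 0.0159). Thus 1 member was lower and 0 were higher, against 4.42% and 3.22% of all genes, and 0 members had a higher value at an unadjusted p under 0.05, with DESeq2 or with limma-voom. In the lower direction, 5 members had an unadjusted p under 0.05 and limma-voom called 4, which were H2-DMa, Cd74 (adjusted p = 0.00281), H2-DMb1 (0.0205) and H2-Aa (0.0411). For this term limma-voom called 1404 of all genes lower, where edgeR called 616. For Cd74 (-0.43, SE 0.146, adjusted p = 0.0897), H2-Eb1 (-0.53, SE 0.209, adjusted p = 0.167) and H2-Aa (-0.43, SE 0.17, adjusted p = 0.166) edgeR did not call the term. With upper-quartile scaling, the share of higher calls among all calls was 31.7% in place of 42.2% for this term, and 38.98% in place of 52.6% for IL-6 beside IL-4, while 7 members were lower for IL-6 beside IL-4 and 1 for this term, as with TMM.

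Summed markers of granulocytes, B cells, T cells and the group of basophils, mast cells and eosinophils were lower in every cytokine group than in control, where Cd74 was higher with IL-4 and IL-13 and most other members were lower. The summed level of 9 granulocyte markers was 344 to 413 CPM in control and 0.979 to 2.30 CPM in the cytokine groups. S100a9 was at 156 CPM in control and at 0.0902 CPM or less in the other means. B-cell markers summed to 65.0 to 72.3 CPM in control and 14.2 to 21.4 CPM elsewhere, most of it Ighm (54.9 CPM in control). T-cell markers summed to 49.5 to 57.4 CPM in control and 2.55 to 12.9 CPM elsewhere, mainly Cd4 and Cd28, with Cd3e at 0 counts in all libraries. Basophil, mast cell and eosinophil markers summed to 39.5 to 46.3 CPM in control and 0.749 to 5.73 CPM elsewhere.

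Of 10 dendritic cell markers, all were above 3 counts in some control library, and 5 were at 3 counts or fewer in every IL-4 and every IL-4+IL-6 library, 3 in IL-13 and 4 in IL-6+IL-13. Flt3 was at 6.38 CPM in control and 0 counts with IL-4, Siglech at 5.48 CPM in control and 0 counts in all cytokine libraries, and Ccr7 at 8.43 CPM in control and at most 0.0547 CPM in the other means. Dendritic cells and B cells carry high class II, H2-O and Ciita, and the part of these markers in the difference from control was not tested. The summed list, 404 to 444 CPM in control, 342 to 382 with IL-4 and 227 to 244 with IL-13, fell to 60.0 to 75.9 with IL-4+IL-6 and 62.8 to 70.4 with IL-6+IL-13. Itgax and Cd24a, which macrophages also express, made up most of that sum in control, IL-4 and IL-13, and both were lowered by IL-6 (Itgax by -2.67 beside IL-4, SE 0.0909, and by -1.80 beside IL-13, SE 0.0884), while Itgax was higher with IL-4 than in control (0.20, SE 0.0838). Cd209a and Kmo went the other way with IL-6. Cd209a was at 2.32 CPM in control, 0 to 3 counts per library with IL-4, 0 counts with IL-13, 11.3 CPM with IL-4+IL-6 and 2.14 CPM with IL-6+IL-13. Kmo was raised by 2.16 beside IL-4 (SE 0.474) and by 2.41 beside IL-13 (SE 0.44).

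Where IL-6 was added to IL-4, most of these markers were already near 0. Granulocyte markers summed to 1.27 to 1.66 CPM with IL-4 and 0.979 to 1.47 with IL-4+IL-6, and B-cell markers to 14.2 to 15.7 and 14.97 to 19.3. T-cell markers went from 5.24 to 7.22 CPM down to 2.55 to 2.83, and basophil, mast cell and eosinophil markers from 4.09 to 5.73 down to 0.749 to 1.18. Flt3 and Siglech were at 0 counts in both groups and Ccr7 at 1 count or fewer per library. Many markers passed the filter on low counts only through control: 7 of 8 granulocyte, 4 of 6 B-cell and 1 of 3 T-cell markers. So did 6 of 7 basophil, mast cell and eosinophil and 5 of 9 dendritic cell markers. These were near 0 without IL-6 and could hardly be lowered. The counts below, beside IL-4 or IL-13, therefore cannot tell whether IL-6 acts on them. Among markers that passed the filter, IL-6 beside IL-4 lowered 1 of 8 granulocyte, 0 of 6 B-cell (also 0 at an unadjusted p under 0.05) and 1 of 3 T-cell markers. It lowered 1 of 7 basophil, mast cell and eosinophil and 2 of 9 dendritic cell markers, and raised 2 of the last. Of all genes, 18.7% were lowered and 20.7% raised. IL-6 beside IL-13 lowered 1 of 8 granulocyte, 0 of 6 B-cell (also 0 at an unadjusted p under 0.05), 1 of 3 T-cell, 1 of 7 basophil, mast cell and eosinophil and 2 of 9 dendritic cell markers, and raised 2 of the last, beside 13.5% of all genes lowered and 12.1% raised.

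**Figure D4:**
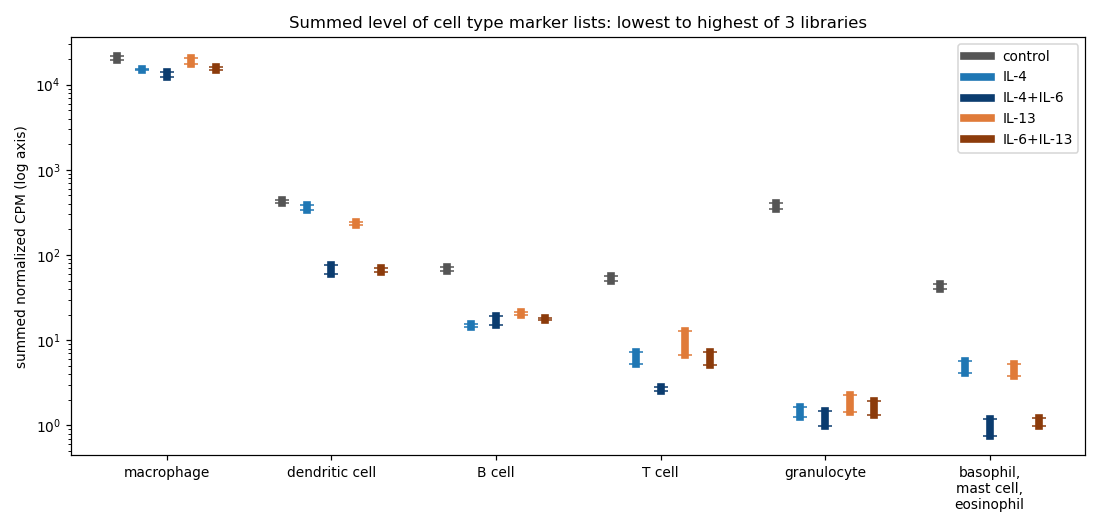
Summed normalized CPM (vertical, log axis) of 6 lists of cell type markers, with a bar from the lowest to the highest of 3 libraries in each group. Granulocyte markers are at 344 to 413 CPM in control and at 2.30 CPM or less elsewhere; macrophage markers are at 12157 CPM or more in all groups.

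The remaining class II genes gave few counts. H2-Eb2 had 18 to 24 counts in the control libraries, 0 in every library that had IL-4, without or with IL-6, and at most 1 per library in the groups with IL-13. The pseudogene H2-Ea-ps had 0 counts in all libraries.

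Partners of CIITA at the promoter module changed in both directions. Of 10 genes (Rfx5, Rfxap, Rfxank, Creb1, Nfya, Nfyb, Nfyc, Crebbp, Ep300 and Kat2b), 6 were lower and 3 higher with IL-4 and 4 lower and 3 higher with IL-13, with a median log2 fold change of -0.30 and -0.12. Of all genes, 35.9% were lower and 32.1% higher with IL-4, and 31.1% and 29.0% with IL-13. Rfx5, the DNA-binding subunit of RFX, fell from 11.7 ± 0.793 CPM in control to 4.27 ± 0.13 CPM with IL-4 (-1.46, SE 0.152, adjusted p = 2.27e-07) and 5.37 CPM with IL-13 (-1.12, SE 0.148, adjusted p = 4.75e-06). The acetyltransferase Ep300 fell by 1.21 with IL-4 (SE 0.16, adjusted p = 4.36e-06) and by 0.75 with IL-13 (SE 0.158, adjusted p = 0.000622). IL-6 lowered 2 and raised 2 of the list beside IL-4 (18.7% and 20.7% of all genes) and lowered 1 beside IL-13 (13.5% of all genes). For Rfx5 the differences with IL-6 were -0.34 (SE 0.17, adjusted p = 0.124) and 0.02 (SE 0.156, adjusted p = 0.961), and for Ep300 -0.01 (SE 0.161) and -0.04 (SE 0.159).

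Genes for the processing of antigen and the invariant chain changed in both directions. The list of 10 holds proteases, the thiol reductase Ifi30 and the protease inhibitor Cst3, and Ctsl and Cst3 were the 2 that were higher with IL-4. Of the 10 genes, 7 were lower and 2 higher with IL-4, 6 lower and 2 higher with IL-13, 4 lower and 3 higher with IL-6 beside IL-4, and 1 lower and 3 higher with IL-6 beside IL-13. In the same order, 35.9% and 32.1%, 31.1% and 29.0%, 18.7% and 20.7%, and 13.5% and 12.1% of all genes were lower and higher. Ctsl, which encodes cathepsin L, was at 1752 CPM in control, 3841 with IL-4, 3463 with IL-13, 9651 with IL-4+IL-6 and 8014 with IL-6+IL-13. It rose in all 4 steps, by 1.13 with IL-4, 0.98 with IL-13, and a further 1.33 and 1.21 with IL-6 (SE 0.0783 to 0.0785 for the last pair, adjusted p = 3.71e-10 and 2.44e-09). Lgmn, which encodes the asparaginyl endopeptidase that makes the first cuts in the invariant chain, rose with IL-6 by 1.46 beside IL-4 (SE 0.0743, adjusted p = 4.92e-11) and by 1.06 beside IL-13 (SE 0.0736, adjusted p = 5.94e-09), after small falls of 0.34 and 0.29 with IL-4 and IL-13.

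Ctsh and Ctse, for cathepsins H and E, fell with IL-4 and with IL-13. Ctsh was at 449 CPM in control, 78.5 with IL-4 and 85.7 with IL-13 (-2.52, SE 0.106, and -2.39, SE 0.105), and IL-6 lowered it by -0.79 beside IL-4 (SE 0.105, adjusted p = 1.02e-05), while its difference beside IL-13 was -0.19 (SE 0.103, adjusted p = 0.209). Ctse fell by 4.09 with IL-4 (SE 0.268, adjusted p = 5.83e-10) and by 3.08 with IL-13 (SE 0.241, adjusted p = 8.38e-09), and with IL-6 its differences were -0.91 (SE 0.416, adjusted p = 0.0953) and -0.81 (SE 0.315, adjusted p = 0.0708). Ctsb, for cathepsin B, fell by 0.57 with IL-4 and by 0.46 with IL-13 and rose with IL-6, by 0.24 beside IL-4 (SE 0.0508, adjusted p = 0.00117) and by 0.28 beside IL-13 (SE 0.0508, adjusted p = 0.000434).

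Genes for turnover and traffic of class II molecules were mixed as well. The list also holds Tap1 and Tapbp, which serve peptide loading of class I. Tap1 was among the higher genes with IL-4 and with IL-13 (0.50 and 0.64), and both were among the lower with IL-6 beside IL-4. Of 12 genes, 6 were lower and 4 higher with either IL-4 or IL-13, 4 lower and 3 higher with IL-6 beside IL-4, and 3 lower and 2 higher with IL-6 beside IL-13. The shares of all genes lower and higher were 35.9% and 32.1% with IL-4, 31.1% and 29.0% with IL-13, 18.7% and 20.7% with IL-6 beside IL-4, and 13.5% and 12.1% with IL-6 beside IL-13. Cd83, whose product protects class II from ubiquitination, went the way of Ciita: 50.5 CPM in control, 13.1 with IL-4, 12.3 with IL-13, 2.42 with IL-4+IL-6 and 4.39 with IL-6+IL-13. Its log2 fold changes were -1.95 (SE 0.137), -2.03 (SE 0.137), -2.44 (SE 0.176) and -1.49 (SE 0.16) in the first 4 comparisons. Marchf1, the ligase that ubiquitinates class II, fell by 1.005 with IL-4 (SE 0.0983, adjusted p = 1.05e-07) and by 1.29 with IL-13 (SE 0.0996, adjusted p = 7.25e-09), and IL-6 raised it by 0.84 beside IL-13 (SE 0.1, adjusted p = 4.9e-06). Beside IL-4 its difference was 0.08 (SE 0.101, adjusted p = 0.561). Of the tetraspanins, Cd82 fell by 1.49 with IL-4 (SE 0.079) and Cd9 fell by 1.13 with IL-6 beside IL-4 (SE 0.102) and by 1.17 beside IL-13 (SE 0.102).

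**Figure D5:**
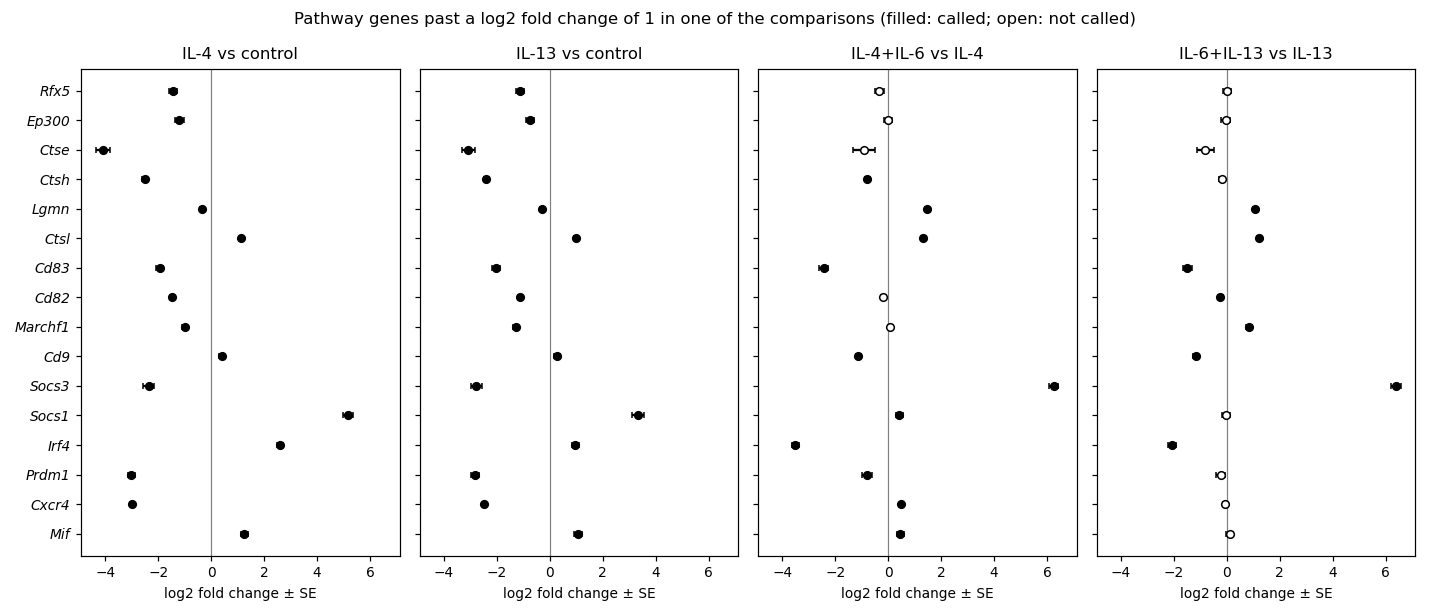
Log2 fold change with its SE (horizontal) of 16 genes from 5 pathway lists that were called with a log2 fold change of at least 1 in one of 4 comparisons; filled points were called. Cd83 is left of 0 in all panels, Ctsl right of 0 in all panels, and Socs3 far right where IL-6 was added (6.25 and 6.39); Cxcr2 is left out because of its few counts, and the genes of the IFN-gamma response are given in the text.

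Regulators known to act on Ciita included genes with large changes. Of 17 listed, 16 had enough counts to be tested, with 6 higher and 7 lower with IL-4, 7 higher and 8 lower with IL-13, 4 higher and 8 lower with IL-6 beside IL-4, and 2 higher and 3 lower with IL-6 beside IL-13. Among all genes, 32.1% were higher and 35.9% lower with IL-4, 29.0% and 31.1% with IL-13, 20.7% and 18.7% with IL-6 beside IL-4, and 12.1% and 13.5% with IL-6 beside IL-13. Ifng, which encodes the main inducer, had 0 counts in all libraries. Socs1, an inhibitor of JAK signaling, rose from 1.02 CPM in control to 36.7 with IL-4 and 10.3 with IL-13 (5.16, SE 0.201, and 3.33, SE 0.219). Socs3, the feedback inhibitor of the IL-6 receptor, rose with IL-6 from 1.69 to 129 CPM beside IL-4 and from 1.27 to 107 CPM beside IL-13 (6.25, SE 0.175, and 6.39, SE 0.182). Irf4 rose with IL-4 to 37.2 CPM from 6.15 (2.60, SE 0.128), and IL-6 lowered it by -3.51 beside IL-4 (SE 0.139) and by -2.06 beside IL-13 (SE 0.146). Prdm1, which encodes the Ciita repressor BLIMP-1, was lower where Ciita was lower than control: it was at 32.4 CPM in control and 4.01 with IL-4 (-3.01, SE 0.146, adjusted p = 1.33e-11), 4.56 with IL-13, 2.31 with IL-4+IL-6 and 3.89 with IL-6+IL-13.

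Genes of the IFN-gamma response, which share inducers with Ciita, were also tested. Of 16 listed genes 12 were tested, with 6 lower and 2 higher with IL-4 (35.9% and 32.1% of all genes), 5 lower and 3 higher with IL-13 (31.1% and 29.0%), 2 lower and 0 higher with IL-6 beside IL-4 (18.7% and 20.7%), and 0 called in either direction by edgeR with IL-6 beside IL-13 (13.5% and 12.1%), where 5 were higher and 0 lower at an unadjusted p under 0.05. Gbp4 passed the filter only through control, and over the other 11 genes 5 were lower with IL-4 and 4 with IL-13. Gbp3 fell by 1.80 with IL-4 (SE 0.298, adjusted p = 4.72e-05) and by 1.13 with IL-13 (SE 0.281, adjusted p = 0.00222), Gbp5 fell by 1.55 (SE 0.507, adjusted p = 0.0121) and by 1.76 (SE 0.517, adjusted p = 0.00746), and Gbp4 had 32 to 47 counts in control and at most 2 with IL-4 or IL-13. The immunoproteasome gene Psmb8 rose by 1.11 with IL-4 (SE 0.169, adjusted p = 1.86e-05).

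CD74 is also a surface receptor for the cytokine MIF, together with CD44 and chemokine receptors. Mif rose with IL-4 by 1.25 (SE 0.142, adjusted p = 6.1e-07) and with IL-13 by 1.07 (SE 0.141, adjusted p = 5.02e-06), as Cd74 did, but unlike Cd74 it rose further with IL-6 beside IL-4 (0.46, SE 0.138, adjusted p = 0.0141), while its difference beside IL-13 was 0.11 (SE 0.138, adjusted p = 0.616). Cxcr4 fell from 194 CPM in control to 24.4 with IL-4 and 35.1 with IL-13 (-2.99, SE 0.0676, and -2.46, SE 0.0655). IL-6 raised it by 0.50 beside IL-4 (SE 0.0671, adjusted p = 1.03e-05), and beside IL-13 the difference was -0.07 (SE 0.0657, adjusted p = 0.507). Cxcr2, which is also one of the granulocyte markers, had 86 to 118 counts in control and at most 5 with any cytokine.

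The genes outside the list whose pattern was most like that of Cd74 over the 15 libraries were Pparg (Pearson r = 0.959, Spearman rho = 0.95), Cenph (0.958 and 0.904), Esd (0.957 and 0.968), Pmf1 (0.955 and 0.904) and Akip1 (0.955 and 0.893), on log2 CPM. Pparg, a nuclear receptor gene induced by IL-4, was at 47.0 CPM in control, 80.2 with IL-4, 58.6 with IL-13, 31.5 with IL-4+IL-6 and 34.7 with IL-6+IL-13. Among the 5 most like Ciita were Slc7a11 (r = 0.971, rho = 0.936), Rcsd1 (0.966 and 0.939), Wsb2 (0.966 and 0.911) and Gabarapl1 (0.964 and 0.925). The 15 points are 5 groups of 3 libraries, so these values describe likeness of group means and carry no test.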

How the data were processed

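Per the labels and the study's methods, RNA of 15 libraries was sequenced. The authors deposited 1 table of raw read counts per Ensembl identifier and a table of FPKM values, with no replicates pooled. The submitters' processing notes name CASAVA, Bowtie2 2.2.3, HISAT2 2.1.0, TopHat2, DESeq2 and GRCm38 with no role, and the counting tool and strand setting are not given in the sources used here. The deposited FPKM values were checked: over 206032 values, the gene lengths that counts and FPKM imply agreed between libraries with a relative difference of 1.94e-07. Symbols and coordinates came from GENCODE vM21.

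Counts were analysed in R 4.3.3 with edgeR 4.0.16 (filterByExpr with a minimum count of 10, TMM, 1 mean per group, quasi-likelihood test, Benjamini-Hochberg adjustment over 13938 genes, called at 0.05). Normalized CPM used a prior count of 2 only for correlations. Ratios with 3 counts or fewer have exact 95% intervals for counting error. Alternatives used DESeq2 1.42.0, limma 3.58.1 (voom with quality weights per library), other scalings and filters, only the groups compared, a replicate block, and each library left out. The weights of replicates 1, 2 and 3 were 3.81, 0.188 and 0.501 in IL-4+IL-6 and 0.282, 0.784 and 2.29 in IL-13. The limma-voom values for these groups thus rest most on 1 library of each. The edgeR fit was also run on counts simulated with known fold changes for IL-4 against control, and the outcome is not given here.

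The members, lists and comparisons were chosen with earlier results of these data known. Named genes were all members, list genes called with an absolute log2 fold change of at least 1 in 1 of the first 4 comparisons (at most 4 per list), markers a result turned on, and the 5 genes most correlated with Cd74 and with Ciita, of which 1 is not reported here. Whether the replicates came from separate animals is not given in the sources used here, so p-values measure the spread between these libraries. No 2 libraries were alike within sampling noise.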

Additional observations from a re-analysis of the deposited data

Results flagged for a closer look

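The effect of IL-6 on H2-DMa differed between its partner cytokines. Beside IL-4, IL-6 took H2-DMa from 24.0 to 10.2 CPM, and beside IL-13 from 17.4 to 11.7 CPM. The interaction on the log2 scale was -0.66 (SE 0.161, adjusted p = 0.0159, edgeR). All 3 libraries with IL-6 were below all 3 without it in both cases. H2-DMa overlaps Brd2 on the opposite strand, and the part of reads from Brd2 was not tested.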

How the results depend on the processing

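No call of a member against control was lost or reversed under any of the alternatives that could be run, nor was one for IL-6 beside IL-4. H2-Ab1 for IL-6 beside IL-13 lost its call without IL-13 replicate 1 or IL-6+IL-13 replicate 2. H2-DMb1 with IL-4 against control, not called, was 0.0146 without a filter on low counts.

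With limma-voom, 2704 genes were higher for IL-6 beside IL-13, 2377 higher and 2837 lower for IL-4 against IL-13, and 4 members lower with 1318 genes higher and 1404 lower for the interaction. Without a filter, 1153 genes were higher for IL-4 against IL-13 and 3 members were lower for the interaction. With only the groups compared, H2-Ob did not pass the filter on low counts and was not tested. Hence 0 members were lower for IL-4 against IL-13 and 0 for IL-4+IL-6 against IL-6+IL-13, where 1326 genes were higher. Leaving out 1 library gave 2 to 7 members higher and 0 to 1 lower for IL-4 against IL-13 (444 to 1292 genes higher, 644 to 1623 lower), 0 to 1 member lower for IL-4+IL-6 against IL-6+IL-13, and 1 to 3 members lower for the interaction (293 to 607 genes higher).

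Small, uncalled differences between IL-4+IL-6 and IL-6+IL-13 changed sign. H2-Eb1 was -0.003782 with upper-quartile factors, -0.009303 without a filter and -0.0002036 with only these groups. With limma-voom, H2-DMb1 was -0.00605 and H2-DMb2 was 0.23. Without 1 library, H2-Ab1 was between -0.0902 and 0.24, H2-Eb1 between -0.12 and 0.20, H2-DMb1 between -0.0625 and 0.10, and H2-DMb2 between -0.67 and 0.53. The interaction was then between -0.98 and 0.22 for H2-DMb2 and between -1.09 and 0.12 for Ciita. The cause was not tested.

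With a replicate block, 0 members were lower for IL-4+IL-6 against IL-6+IL-13 (H2-Ob, adjusted p = 0.0615), and no other member's call changed. Replicate numbers did not pair the libraries: over 30 same-numbered pairs the correlation of deviations was between -0.276 and 0.163, and 3 pairs were above 0.1. Between 2 and 9 counts per library limit Ciita with IL-6, and 0 to 9 limit H2-Ob with any cytokine.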
